A study of Homo sapiens with 8 samples.

Results

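Acetylation of histone H3 at lysine 27 (H3K27ac), a mark of active promoters and enhancers, was described at 9 aldehyde dehydrogenase (ALDH) genes in A549, a lung adenocarcinoma cell line of human origin in which NRF2 is persistently active. The genes were ALDH1A1, ALDH1A3, ALDH1B1, ALDH1L1, ALDH2, ALDH3A1, ALDH3A2, ALDH3B1 and ALDH7A1. Cells received control siRNA or NRF2 siRNA and were harvested 48 h later for chromatin immunoprecipitation and sequencing. There were 3 control siRNA and 3 NRF2 siRNA libraries, with siRNA 28 in NRF2 siRNA replicate 1 and siRNA 30 in replicates 2 and 3. All libraries came from this single KEAP1-mutant line, and the study describes its replicates as independent experiments. Peaks of the 6 deposited lists were merged where they shared at least 1 base, which gave 49186 regions. Of these, 40 overlapped the body of one of the 9 genes or the 20 kb on either side of it (GENCODE, GRCh37). H3K27ac in bulk cells does not separate a change in every cell from a change in some of them.

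Aldehyde dehydrogenases oxidise reactive aldehydes to carboxylic acids with NAD or NADP. Some make retinoic acid from retinaldehyde (ALDH1A1, ALDH1A3), some clear acetaldehyde in mitochondria (ALDH2, ALDH1B1), and others remove aldehydes from peroxidised or membrane lipids (ALDH3A1, ALDH3A2, ALDH3B1). ALDH1L1 is a folate enzyme and ALDH7A1 acts in lysine breakdown. NRF2 is a transcription factor that binds antioxidant response elements together with small MAF proteins, and several detoxification enzymes are among its known targets. siRNA acts on the NRF2 messenger RNA, so acetylation at the NRF2 gene (NFE2L2) does not check the knockdown. The 2 NFE2L2 start regions called in every library changed by -0.20 and -0.04 score units (limma adjusted p = 0.602 and 0.944), and another was called in 1 library only.

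The lists held between 23885 and 41571 peaks, and NRF2 siRNA replicate 1 was the shortest. The lists hold no read counts. By the read totals in the supplement, replicate 1 of both groups was sequenced less deeply than replicates 2 and 3, and within each pair depths were alike. Fold enrichments were therefore not compared between lists. Instead, each region was given the percentile of its highest fold enrichment within the list of that library, where 100 is the best peak. Replicate 1 of both groups lacks a flow cell identifier that replicates 2 and 3 carry in their peak names, and siRNA 28 was used there alone, so these cannot be told apart. The starts of the epithelial genes KRT8, KRT18, CDH1 and EPCAM were called in 6 of 6 libraries. Those of PTPRC, CD3E, CD79A, CDH5, COL1A2 and PDGFRB, markers of blood, endothelium and fibroblasts, were called in 0.

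Sequences of the regions the results turn on are shown from GRCh37, 5′ to 3′. Capitals mark the core of an antioxidant response element, searched on both strands as TGACNNNGC or TGAGNNNGC. In the 3 longer windows, which are the 200 bases of each region with most cores and are printed from the plus strand, a core on the minus strand reads as its reverse complement. The ALDH3A1 start region, its upstream neighbour and the upstream region of ALDH1A3 are shown because their H3K27ac rank fell with NRF2 siRNA.
ALDH3A1, start region, chr17:19656341-19656540: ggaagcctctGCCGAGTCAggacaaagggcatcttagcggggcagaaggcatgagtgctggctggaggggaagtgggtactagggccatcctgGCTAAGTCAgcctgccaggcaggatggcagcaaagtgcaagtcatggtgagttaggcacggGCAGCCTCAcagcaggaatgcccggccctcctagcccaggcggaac
ALDH3A1, upstream region, chr17:19666857-19667056: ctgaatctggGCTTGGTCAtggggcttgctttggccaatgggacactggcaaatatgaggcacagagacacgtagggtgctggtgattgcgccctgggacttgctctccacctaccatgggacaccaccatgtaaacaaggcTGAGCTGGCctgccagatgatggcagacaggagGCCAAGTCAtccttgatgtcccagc
ALDH1A3, upstream region, chr15:101406926-101407125: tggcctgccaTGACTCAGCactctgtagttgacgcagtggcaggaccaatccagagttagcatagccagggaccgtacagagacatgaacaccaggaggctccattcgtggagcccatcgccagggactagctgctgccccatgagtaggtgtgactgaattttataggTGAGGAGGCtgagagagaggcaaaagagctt

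One of the cores at ALDH1A3 has the letters TGACTCAGC, which contain the AP-1 element TGACTCA. This form occurred at 9 places in 8 of the 40 regions, whereas 9.11% of 49154 regions in the genome held it. Per length it was as frequent, with 0.0346 per kb in the ALDH regions and 0.0356 per kb over all regions. ALDH1A1, ALDH1B1, ALDH1L1, ALDH3A1, ALDH3A2 and ALDH3B1 held further copies. The TGACTCAGC copies of ALDH1L1, ALDH1B1, ALDH3A2 and ALDH3B1 are shown on the strand of the core, because their regions differed in how rank moved. In that order, the scores of these regions changed by 0.50, -0.12, -0.21 and -0.25. Copies not shown lay in an ALDH1A1 and an ALDH3A1 region that changed by -0.70 and -0.79, and in an untested ALDH1A1 region. The region of the ALDH1A3 copy changed by -1.50.
ALDH1L1, upstream region, minus strand, chr3:125927643-125927671: ggctccactaTGACTCAGCgtcctggggg
ALDH1B1, start region, plus strand, chr9:38393722-38393750: gcagatctgcTGACTCAGCttccccctgt
ALDH3A2, start region, plus strand, chr17:19550902-19550930: gtttcttgcaTGACTCAGCtttttgctta
ALDH3B1, start region, plus strand, chr11:67772883-67772911: gcaattctccTGACTCAGCcttgtgagta

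Of the 40 ALDH regions, 9 lay at a start of the member itself (within 1 kb of the start of a coding transcript), 5 at the start of another coding gene and 26 at neither, which are called distal. The 9 start regions belonged to 7 genes, 3 of them to ALDH1A1, and ALDH1A3 and ALDH1L1 had no peak at any coding start in any library. The median length of ALDH regions was 1854 bp, close to the 1699 bp of all regions. Of the 40, 7 (17.5%) were 10 kb or longer, 3 of them at starts of ALDH1A1, against 3.98% of all regions. Control libraries 1, 2 and 3 called 26, 29 and 38 of the 40, and NRF2 siRNA libraries 16, 21 and 24. Over all 49186 regions the shares called were 50.8, 64.6 and 82.3% in control and 41.7, 65.5 and 76.2% in NRF2 siRNA libraries. In pair 2 the NRF2 siRNA library thus called fewer ALDH regions than its control, but more regions of the genome. A total of 14 of the 40 were called in all 6 libraries, against 34.2% of all regions, and 10 in a single library, against 21.8% of all regions. Of these, 8 were found only in control siRNA replicate 3, the longest list, as were 10.4% of all regions. With calls in 3 control and 0 NRF2 siRNA libraries there were 3 regions, and with the opposite pattern there were 0. Over the genome these patterns had 1118 and 408 regions, or 2.27 and 0.83%.

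Regions called in at least 3 libraries were ranked in each library, ranks were turned into normal scores, and scores were compared with limma over all 32673 such regions. A score change of -1 means that the rank fell by 1 standard deviation of a normal distribution. Of the 40 ALDH regions, 26 entered this test, and 14 did not. At an adjusted p under 0.05, 4 of the 26 were lower with NRF2 siRNA and 0 were higher, while 3.39% of all tested regions were called lower and 2.01% higher (1108 and 657 regions). With the replicate number as a block, 7 ALDH regions were lower and 0 higher (2164 and 1868 of all regions). With lists shortened to equal length, limma called 1321 regions lower and 1185 higher, and 4 ALDH regions lower and 0 higher. At an unadjusted p under 0.05, 11 of the 26 were lower and 0 higher, against 10.7 and 11.9% of all tested regions. Of the 4, 3 belonged to ALDH3A1 and 1 to ALDH1A3. The regions called in 3 control and 0 NRF2 siRNA libraries entered through the control group alone and so had to differ, and 2 of the 4 were of this kind. Among the 14 regions called in all 6 libraries, where entry favours neither group, 1 was called lower and 0 higher, against 1.36 and 1.28% of all such regions in the same fit. Scores were lower in all 3 pairs in 9 of these 14 and higher in all 3 pairs in 2, against 22.4 and 28.2% of the 16845 regions called in every library. Percentiles of the groups did not overlap in 9 of the 14, lower with NRF2 siRNA in 8 and higher in 1 (11.3 and 8.85% of all such regions). These counts have no test, since several of the 14 regions belong to the same gene.

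**Figure D1:**
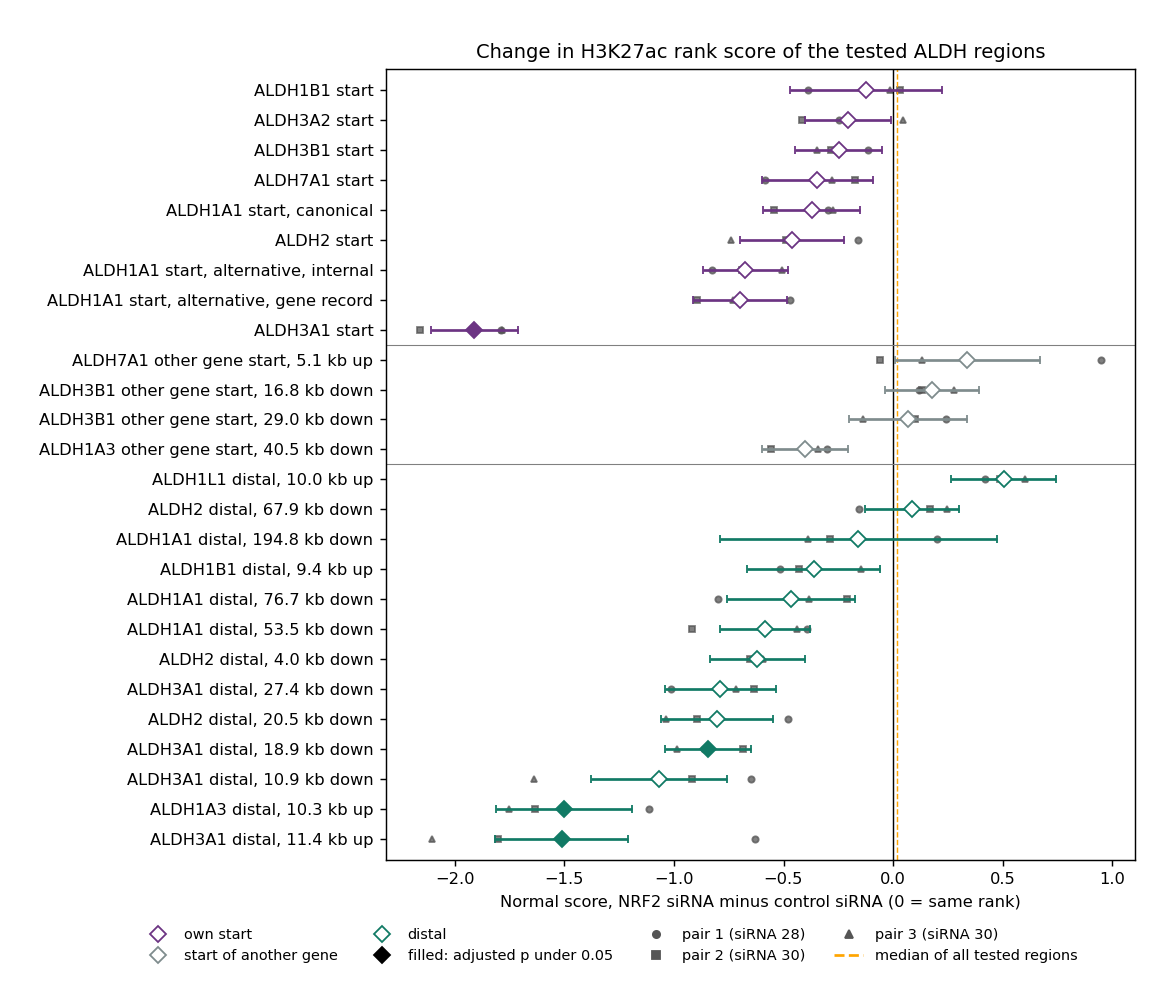
Change in normal score (NRF2 siRNA minus control siRNA) of the 26 tested ALDH regions, ordered within the classes own start, start of another gene and distal. Diamonds with bars give the limma estimate and its SE, small symbols the change in each pair, filled diamonds an adjusted p under 0.05, and the dashed line the median of all 32673 regions (0.02). All 9 regions at an own start lie below 0, with ALDH3A1 apart from the others at -1.91.

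ALDH3A1, an inducible cytosolic enzyme that removes aldehydes of lipid peroxidation, carried the largest fall among the named regions called in all 6 libraries. Its start lay in a region of 16632 bp (chr17:19645793-19662424) that covers exons and UTRs at the 5′ part of the gene and the sequence before it. In the control lists this region ranked 10th of 27941, 5th of 34747 and 16th of 41571 by fold enrichment. In the NRF2 siRNA lists it ranked 1741st of 23885, 2362nd of 34986 and 2131st of 39108. The groups were far apart, and yet the region still stood at percentiles 92.7, 93.3 and 94.6 with NRF2 siRNA. The score changed by -1.91 (SE 0.199, limma adjusted p = 0.00628), and by -1.79, -2.16 and -1.79 in pairs 1, 2 and 3. For the percentile difference the exact permutation p was 0.1, the smallest that 3 against 3 libraries allow. The stretch under peaks shortened as well, from 14.6, 12.8 and 16.6 kb in controls to 9.28, 9.78 and 9.88 kb. The length covered by all peaks differed between lists too, with 64.7 to 113 Mb in controls and 46.3 to 106 Mb in NRF2 siRNA libraries. The limma adjusted p was 0.0504 without control siRNA replicate 2 and stayed below 0.05 when any other library was left out. Without that library limma called 0 regions of the genome in either direction, with 2957 lower and 3076 higher at an unadjusted p under 0.05.

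Further ALDH3A1 regions were lower too. The upstream region (chr17:19663672-19667102, 11416 bp before the start and outside coding genes) stood at percentiles 24.2, 57.5 and 63.2 in controls and was called in 0 NRF2 siRNA libraries. Its score changed by -1.51 (SE 0.304, limma adjusted p = 0.0270). It passed the filter through the control group alone, and without control siRNA replicate 2 or 3, or NRF2 siRNA replicate 2 or 3, its adjusted p lay between 0.0685 and 0.115. Downstream of the gene, a region 15106 bp from the nearest coding start (chr17:19630609-19633340) stood at percentiles 37.2, 43.6 and 57.3 in controls. It was not called in NRF2 siRNA replicate 1 and stood at 15.8 and 20.1 in replicates 2 and 3, so that the groups did not overlap. Its change was -0.84 (SE 0.196, limma adjusted p = 0.0413), and the adjusted p was between 0.083 and 0.139 when any library other than NRF2 siRNA replicate 1 was left out. With the replicate number as a block, 2 further regions of the gene passed the threshold, which were named after their values were seen. A region at the 3′ end (chr17:19636702-19641397) overlaps the UTR there but lies mostly past the gene, whose record ends at 19641297. It was called in 3 control and 0 NRF2 siRNA libraries and changed by -1.07 (limma adjusted p = 0.0277 with the replicate block, 0.0808 without). A more distant one (chr17:19622032-19624884) changed by -0.79 (limma adjusted p = 0.0341 with the block, 0.104 without). It lay within 1 kb of the start of another coding gene's record, though not of any coding transcript start. The upstream region and that at the 3′ end passed the filter through controls alone and had to be lower. The remaining 2 regions of the gene were called in control siRNA replicate 3 only.

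**Figure D2:**
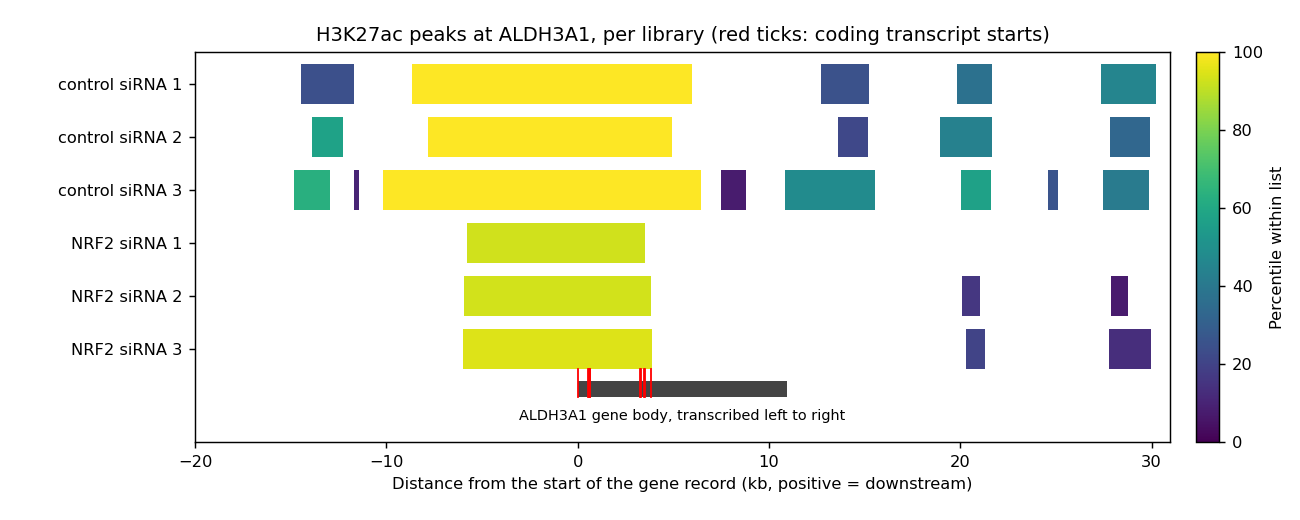
Peaks of each library across ALDH3A1 and 20 kb on either side, by distance from the start of the gene record in kb (positive is downstream), coloured by percentile within the list of that library. The peak over the start is at the top of the scale in the 3 control libraries and shorter, at percentiles 92.7 to 94.6, in the NRF2 siRNA libraries, and the peak 11416 bp upstream is seen in control libraries only.

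The ALDH3A1 start region held 16 response element cores in its 16632 bp, where regions of like length (within 10%) held a median of 13. Its upstream neighbour held 8 against a median of 3, more than 97.8% of regions of like length. The fallen downstream region held 0, as did 11.1% of regions of its length. The TGACTCAGC form was in none of these 3 regions. A core lay in the 5′ UTR close to the canonical start and is shown on the plus strand for its position.
ALDH3A1, start, chr17:19651565-19651593: ggattaccttTGACACAGCctctcccggt

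ALDH1A3, which makes retinoic acid, had 2 regions and none at its start. The upstream one (chr15:101406470-101407602, 10317 bp before the nearest coding start and outside coding genes) stood at percentiles 50.6, 50.6 and 51.6 in controls, so that it was a peak of middle rank with little spread. It was called in 0 NRF2 siRNA libraries. Its score changed by -1.50 (SE 0.311, limma adjusted p = 0.0297), and by -1.11, -1.64 and -1.75 in the pairs. The region entered the test through the control group alone, and the adjusted p was 0.0076 with the replicate block but lay between 0.0716 and 0.121 when any library other than NRF2 siRNA replicate 1 was left out. It held 3 cores in 1133 bp against a median of 1 in regions of like length. The TGACTCAGC form shown above was present in 6.75% of regions of this length. The other region of ALDH1A3 lay past the gene, at the start of LRRK1 (chr15:101458426-101460184). It stood at percentiles 4.07, 41.7 and 46.4 in controls and, where called, at 18.9 and 30.7 in NRF2 siRNA libraries, and the groups overlapped.

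ALDH1A1, the cytosolic retinaldehyde dehydrogenase and a marker of stem-like cells, had 12 regions, the most of any member, 6 of which were called in control siRNA replicate 3 and at most 1 other library. Its best peak was among the first of every list. An intronic region of 28010 bp (chr9:75590699-75618708), which lies upstream of the canonical start but inside the longer gene record, ranked 5th, 2nd and 1st in controls and 76th, 4th and 3rd in NRF2 siRNA libraries. The score changed by -0.46 (SE 0.292, limma adjusted p = 0.393), and the groups overlapped.

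The 3 start regions of ALDH1A1 ranked lower with NRF2 siRNA in every pair, without passing the threshold. The region at the canonical start (chr9:75509763-75576601), which spans 66839 bp and runs past the 3′ end of the gene, ranked 715th, 1388th and 1436th in controls. In NRF2 siRNA libraries it ranked 1459th, 3992nd and 2523rd, below every control. Its change was -0.37 (SE 0.223, limma adjusted p = 0.37). The internal alternative start (chr9:75649521-75669300) stood at percentiles 98.9, 98.4 and 98.7 in controls and 90.5, 92.7 and 95.5 in NRF2 siRNA libraries, with a change of -0.67 (SE 0.195, limma adjusted p = 0.0794). The start of the gene record (chr9:75686431-75710121) stood at 96.7, 98.5 and 99.3 in controls and 89.1, 89.9 and 95.6 in NRF2 siRNA libraries, with a change of -0.70 (SE 0.215, limma adjusted p = 0.0936). Percentiles of control and NRF2 siRNA libraries were apart in all 3 regions (exact permutation p = 0.1 for each). The replicate block left both alternative starts just short of the threshold (limma adjusted p = 0.0525 and 0.0517). Both passed it with limma's trend and robust options (adjusted p = 0.0216 and 0.0270), and with the block plus equal list lengths (adjusted p = 0.0377 and 0.0367). The canonical start region held 28 cores and the internal one 4, against medians of 52.5 and 17 in regions of like length. For the gene record start the count was 19 against 20.

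**Figure D3:**
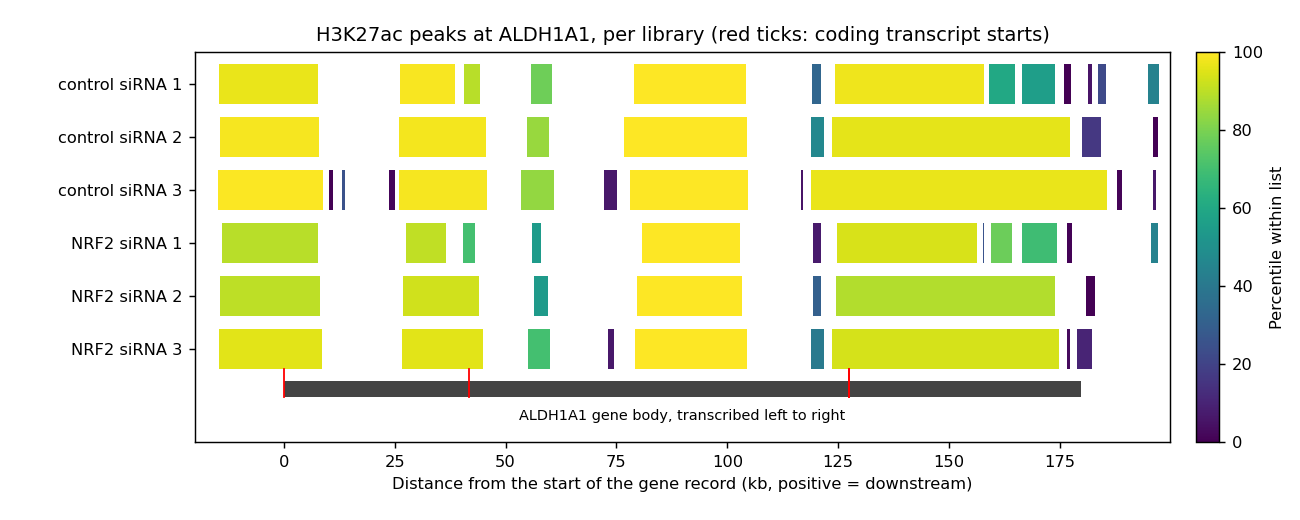
Peaks of each library across ALDH1A1 and 20 kb on either side, by distance from the start of the gene record in kb, coloured by percentile within the list of that library. Red ticks mark coding transcript starts, with the canonical one furthest downstream. The intronic peak is at the top of the percentile scale in all 6 libraries, where the scale cannot show its score change of -0.46, and the peaks over the starts stand at lower percentiles in the NRF2 siRNA libraries.

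The mitochondrial acetaldehyde enzymes differed in rank and spread. At ALDH2, the start region (chr12:112204122-112207088) stood at percentiles 57.7, 55.8 and 72.9 in controls and 38.7, 35.9 and 45.6 in NRF2 siRNA libraries. These groups did not overlap, with means of 62.1 ± 9.39 and 40.1 ± 5.01 (SD, n = 3 each; exact permutation p = 0.1). The score changed by -0.46 (SE 0.237, limma adjusted p = 0.29). An intronic region of 10484 bp (chr12:112208699-112219182), 3962 bp from the nearest start, was the best peak of the gene at percentiles 96.8, 98.7 and 99.3 in controls. In NRF2 siRNA libraries it stood at 86.3, 94.3 and 96.6, below every control, with a change of -0.62 (SE 0.218, limma adjusted p = 0.13). It held 13 cores against a median of 8. A further intronic region (chr12:112225161-112227108), named after its values were seen, changed by -0.80 and passed the threshold with the replicate block only (limma adjusted p = 0.0384, without it 0.101). The region past the 3′ end of ALDH2 (chr12:112272556-112273639), also named after its values were seen, showed no resolved change. Its percentiles were 88.1, 86.7 and 93.2 in controls and 81.3, 90.1 and 95.5 in NRF2 siRNA libraries, and the groups overlapped. Its score changed by 0.09 (limma adjusted p = 0.859), and by -0.15, 0.17 and 0.25 in the pairs.

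At ALDH1B1 no change was resolved. Its start region (chr9:38392033-38393746) stood at percentiles 9.66, 54.0 and 71.9 in controls. It was not called in NRF2 siRNA replicate 1 and stood at 55.6 and 69.2 in replicates 2 and 3. The change was -0.12 (SE 0.345, limma adjusted p = 0.877), and without NRF2 siRNA replicate 1 it was 0.24. The upstream region of ALDH1B1 (chr9:38379747-38383276) followed the same order over libraries, with 17.2, 64.4 and 68.6 in controls and 47.7 and 61.3 in the NRF2 siRNA libraries that called it. Its change was -0.36 (SE 0.304, limma adjusted p = 0.534).

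The lipid aldehyde enzymes ALDH3A2 and ALDH3B1 had starts of high rank that moved little. ALDH3A2, the fatty aldehyde dehydrogenase of the endoplasmic reticulum and the neighbour of ALDH3A1 on chromosome 17, had a start region of 8150 bp (chr17:19548393-19556542). It ranked 353rd, 279th and 612th in controls and 673rd, 810th and 551st in NRF2 siRNA libraries, and the groups overlapped. The change was -0.21 (SE 0.198, limma adjusted p = 0.595), and 0.04 in pair 3. The better ranked distal region of ALDH3A2 in controls (chr17:19562967-19564448) was called in 2 control libraries, where it ranked 34636th and 31175th, and was not tested. The other, 18025 bp upstream, was called in NRF2 siRNA replicate 3 only, the single one of the 40 regions without a call in any control. ALDH3B1, which acts on lipid aldehydes at membranes, shared its start region (chr11:67769448-67788987) with exons of UNC93B1, so the signal cannot be assigned to one gene. It ranked 19th, 9th and 18th in controls and 29th, 24th and 57th in NRF2 siRNA libraries. Each NRF2 siRNA rank was thus lower than every control rank, but the change of -0.25 (SE 0.199, limma adjusted p = 0.514) was small. This start and that of ALDH3A1 stood side by side at the top of the control lists. The ALDH3B1 region held the most cores of any ALDH region, 31 in 19540 bp against a median of 17, which 98.7% of regions of like length did not reach. Its 2 distal regions were each called in 1 library, one (chr11:67764420-67765714) in control siRNA replicate 3 and the other in control siRNA replicate 2.

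ALDH1L1, the cytosolic formyltetrahydrofolate dehydrogenase, was the member whose best region rose in rank. It had no region at its start. The region 10038 bp upstream (chr3:125926875-125928479) stood at percentiles 44.5, 45.2 and 43.9 in controls and 56.9, 64.9 and 61.2 in NRF2 siRNA libraries. Every NRF2 siRNA value exceeded every control value, with means of 61.0 ± 3.96 and 44.5 ± 0.664 (SD, n = 3 each; exact permutation p = 0.1). The change was 0.50 (SE 0.239), and 0.42, 0.49 and 0.60 in the pairs, and it did not pass the threshold (limma adjusted p = 0.254, with the replicate block 0.104). The rise passed in 1 of 17 alternative settings, at a limma adjusted p of 0.03775. This region holds TGACTCAGC as well, as does the ALDH1A3 region called in 0 NRF2 siRNA libraries. ALDH7A1, which breaks down a semialdehyde of lysine, had a start region (chr5:125930087-125931575) at percentiles 21.3, 51.5 and 64.4 in controls. It was not called in NRF2 siRNA replicate 1 and stood at 44.7 and 52.0 in replicates 2 and 3, with a change of -0.35 (SE 0.253, limma adjusted p = 0.471). The only other region of ALDH7A1, at the start of PHAX (chr5:125936150-125937643), changed by 0.34 (SE 0.331, limma adjusted p = 0.601).

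**Figure D4:**
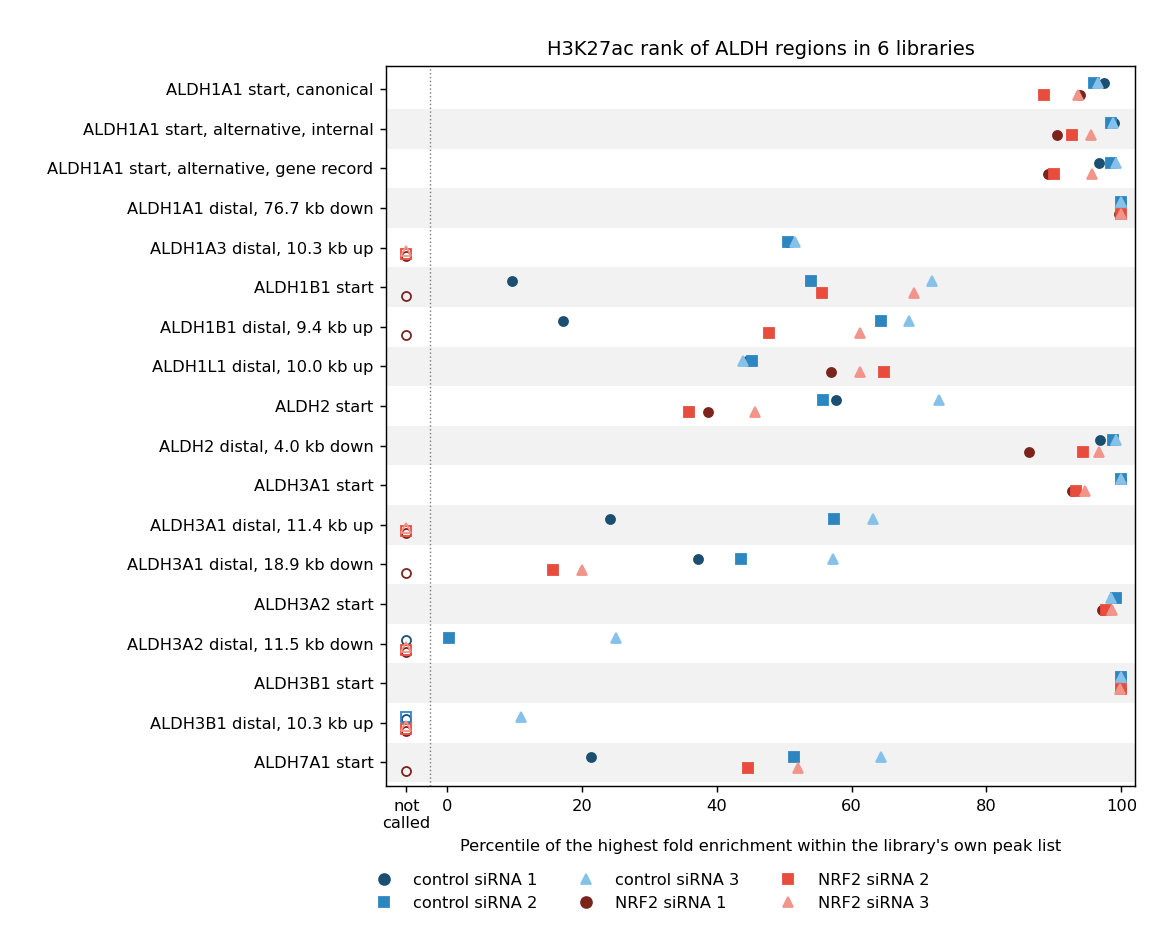
Percentile of the highest fold enrichment within the list of each library for the 18 named ALDH regions, with control siRNA in blue and NRF2 siRNA in red and libraries without a peak at the left. The groups are apart at the start of ALDH3A1, at the 3 ALDH1A1 starts and at both ALDH2 regions. At the ALDH3B1 start they are apart by a small margin. With uncalled libraries taken as lowest, they are also apart at the upstream and downstream ALDH3A1 regions and upstream of ALDH1A3. The upstream ALDH1L1 region is the one where the NRF2 siRNA libraries stand higher. Distances give the position from the start of the gene record.

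Start regions, as a stand-in for promoters, and distal regions were set against each other, as medians over regions and without a test. Start regions of the members were up to 66839 bp long. The value of a region is that of its highest peak, which in long regions need not lie at the start. At own starts, the 7 regions called in all 6 libraries had median percentiles of 98.7, 98.5 and 98.7 in controls and 92.7, 92.7 and 95.5 in NRF2 siRNA libraries. Start regions of all genes in the same state had medians of 66.8, 73.2 and 81.2 in controls and 61.9, 71.8 and 76.2 in NRF2 siRNA libraries. The median score change was -0.46 at ALDH starts and -0.04 at all starts. In pairs 1, 2 and 3 it was -0.30, -0.54 and -0.51 at ALDH starts and 0.06, -0.04 and -0.13 at all starts. All 7 scored below 0, as did 55.6% of all starts. The 7 include 3 regions of ALDH1A1, so they stand for 5 genes.

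The 5 distal ALDH regions called in all 6 libraries had a median change of -0.46, and of -0.39, -0.21 and -0.38 in the pairs, while all distal regions had a median of 0.10. Of the 5, which belong to ALDH1A1, ALDH2 and ALDH1L1 only, 3 scored below 0, as did 39.3% of all distal regions called in all 6 libraries. The 2 above 0 were the upstream region of ALDH1L1 and the region past ALDH2. With the regions called in all 6 libraries ranked alone, the medians were -0.74 at own starts and -0.49 at distal regions. Over all tested regions, including those that entered through the control group alone, the medians were -0.37 at 9 starts and -0.62 at 13 distal regions, and distal regions held 3 of the 4 calls. Over the genome, distal regions held 979 of the 1108 lower calls, or 4.43% of distal and 1.22% of start regions. Of the 4 tested regions at the start of another gene, 1 scored below 0, against 57.6% of all tested start regions, and their median was 0.12.

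**Figure D5:**
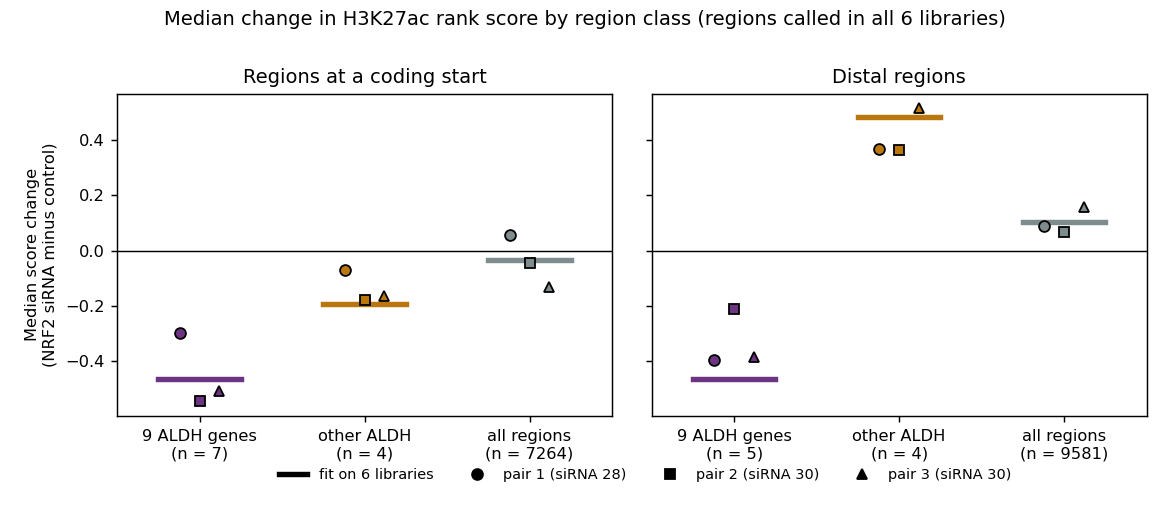
Median score change (NRF2 siRNA minus control siRNA) at coding starts and at distal regions, for regions called in all 6 libraries. Bars give the median of the limma estimates and symbols the medians within each pair, for the 9 ALDH genes, the other ALDH genes and all regions. Medians over regions of the 9 genes lie below 0 in each pair in both classes, with bars at -0.46. Not every gene has a region here, and the distal ones belong to ALDH1A1, ALDH2 and ALDH1L1 only. For the other ALDH genes the bars are at -0.19 at starts and 0.48 at distal regions, with 4 regions in each class.

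The other 10 ALDH genes had 39 regions, 25 of them tested, of which 2 were called lower and 0 higher. With the replicate block, 5 were lower and 0 higher. The added 3 were intronic regions of ALDH1A2, named after their values were seen, with changes of -0.74, -0.72 and -0.83 (limma adjusted p = 0.0380, 0.0412 and 0.0401 with the block, and 0.0807, 0.0886 and 0.0674 without). One of them (chr15:58622059-58630998) was called in all 6 libraries, at percentiles 99.7, 99.6 and 99.6 in controls and 98.3, 96.2 and 97.5 in NRF2 siRNA libraries. Of the 8 tested start regions 0 were called, and 6 scored below 0, with a median of -0.22. The 13 tested distal regions had a median of -0.04. For the 4 distal regions called in all 6 libraries it was 0.48, and 1 of them scored below 0. Regions of ALDH3B2 and ALDH8A1 among them, named after their values were seen, rose by 0.51 and 0.53 with groups apart (limma adjusted p = 0.209 and 0.309). At ALDH9A1, which oxidises aminobutyraldehyde, the start region changed by -0.20 (limma adjusted p = 0.601). The 2 called regions lay past the 3′ end of ALDH9A1, and both overlap MGST3, a microsomal glutathione transferase gene. One of them (chr1:165619792-165621090) stood at percentiles 83.3, 70.9 and 82.6 in controls and was called in 0 NRF2 siRNA libraries, with a change of -2.30 (SE 0.314, limma adjusted p = 0.00953). It entered the test through the control group alone. The other (chr1:165612900-165617509) stood at 84.6, 69.6 and 72.1 in controls. It was missing in NRF2 siRNA replicate 1 and stood at 25.9 and 41.6 in the others, with a change of -1.31 (SE 0.257, limma adjusted p = 0.0253).

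Among the further starts, ALDH1A2 (retinaldehyde oxidation) changed by -0.18 at an alternative start (limma adjusted p = 0.683), ALDH16A1 by -0.23 (limma adjusted p = 0.523), and ALDH6A1, of valine breakdown, by -0.49 (limma adjusted p = 0.399). ALDH4A1, of proline breakdown, was not called in NRF2 siRNA replicate 1 and changed by -0.48 (limma adjusted p = 0.641), with -2.16, 0.58 and 0.13 in the pairs. ALDH18A1, of proline synthesis, changed by 0.21 (limma adjusted p = 0.689). ALDH1L2, the mitochondrial relative of ALDH1L1, changed by -0.34 at its canonical start and by 0.02 at its second start, shared with WASHC4 (limma adjusted p = 0.533 and 0.957). The start of ALDH5A1, of GABA breakdown, was called in 2 control libraries and was not tested. ALDH3B2 and ALDH8A1 had no region at a coding start.

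Over the 40 regions of the 9 genes, 33 (82.5%) held at least 1 response element core, against 74.2% of all regions. There were 219 cores in 260 kb, or 0.841 per kb, compared with 0.895 per kb over all regions. The same pattern read backwards occurred 49 times, or 0.188 per kb, compared with 0.230 per kb over all regions. Its fixed letters include CG, which those of the core do not, so its count is no matched control for the core count. Cores per length were thus close to the level of all H3K27ac regions. Regions with many cores for their length were found among those that fell (upstream of ALDH3A1 and ALDH1A3) and among those that moved little (the start of ALDH3B1). A match of these letters is a description of the sequence, and binding was not measured in these lists.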

How the data were processed

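H3K27ac ChIP-seq peak lists of 3 control siRNA and 3 NRF2 siRNA libraries of A549 cells were used. The 2 input samples were not analysed here. Per the study's methods, single-end reads had been mapped by the authors to the hg19 build (Bowtie2 2.2.6). They removed reads of low mapping quality, called broad peaks in each library with MACS2 2.1.0.20151222 and removed blacklisted regions. Each deposited list gives, per peak, an integer score, a fold enrichment (a ratio to background), and a p-value and q-value as −log10. Whether an input served as background is not given in the sources used here. The lists hold no read counts, so no counting interval is given. The supplement states read totals, which put replicate 1 of both groups below the others in depth. They were not used in the tests.

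Percentiles and ranks were computed within each list from the fold enrichment of the highest peak. Regions called in at least 3 of 6 libraries were ranked, libraries without a call took the tied lowest rank, and normal scores were compared with limma 3.58.1 (R 4.3.3), with Benjamini-Hochberg adjustment over all 32673 regions and a threshold of 0.05. Single percentiles were compared by exact two-sided permutation tests (scipy 1.17.1), with 0 for uncalled regions. The limma step was run on simulated scores with known shifts. Their noise was independent between libraries, and uncalled regions had no tied lowest rank, so this run is no check of the calls in these lists. Chromosome names and lengths of the lists fitted GRCh37, from which sequences were read with pysam 0.24.0, and genes came from GENCODE v44 lifted to it.

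Replicate numbers in the sample titles pair the libraries. Deviations of same-numbered libraries from their group means correlated across regions with r = 0.398, 0.199 and 0.363, so the fit with a replicate block is given where it changes a call.

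Named in the text are all 9 members, the regions at their starts, the distal region of each with the highest mean percentile in controls, and every region past the threshold, with further regions marked as chosen after their values were seen. For the other ALDH genes, start regions and regions past the threshold are named. The members and lists were chosen with earlier results of these data known. Alternatives were the replicate block, equal list lengths, a q-value of at most 1e-05, other filters, merging, overlap and gene windows, and leaving out each library. The fit on replicates 2 and 3 and the block with equal list lengths were added after the data were seen.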

Additional observations from a re-analysis of the deposited data

How the results depend on the processing

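Calls depended on the setting and on single libraries, and the causes were not tested unless named. In order lower and higher, all regions called numbered 2164 and 1868 with the replicate block, 451 and 263 at a q-value of at most 1e-05, 369 and 341 when called in all 6 libraries (fewer regions tested), 591 and 305 where peaks covered at least 25% of the region, 1975 and 1719 with replicates 2 and 3 only, and 2041 and 2151 with the block plus equal list lengths. The higher calls were 1185 with equal list lengths, 427 when called in at least 1 library and 1175 with trend and robust options. Leaving out single libraries gave 0 to 1716 lower and 0 to 882 higher calls. Both were 0 in limma without control siRNA replicate 2, where 2957 were lower and 3076 higher at an unadjusted p under 0.05.

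Of the ALDH regions, 7 were called lower with the replicate block, paired by number, and 7 with equal list lengths as well, where 1 was called higher. A single one was called lower at a q-value of at most 1e-05, among regions called in all 6 libraries, with 25% coverage and within 5 kb of the genes. Leaving out single libraries gave 0 to 6 called lower, namely 0 lacking control siRNA replicate 2, 2 lacking replicate 1 of that group, and 1 lacking its replicate 3 or replicate 2 or 3 of NRF2 siRNA. The median change of own starts was -0.74 among regions called in all 6 libraries ranked alone and lay between -0.51 and -0.35 when single libraries were left out. The median of distal regions was -0.66 with equal list lengths (with or without the replicate block), -0.35 at a q-value of at most 1e-05, -0.49 among regions called in all 6 libraries ranked alone, -0.27 when called in at least 1 library, -0.68 with replicates 2 and 3 only and -0.46 within 50 kb. When single libraries were left out it lay between -0.88 and -0.60. The pattern read backwards gave 49 matches in place of 219 cores. It was also the rarer pattern over all regions (0.230 against 0.895 per kb), and it is no matched control, since it holds a fixed CG.

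Among the named regions, 229 values of the score change stayed on their side of the threshold with the same sign, 20 lost the call, 7 gained one and 7 changed sign. Sign changes were at ALDH1B1 (start; 0.075 with equal list lengths, with or without the block, 0.17 at a q-value of at most 1e-05, 0.0098 with replicates 2 and 3 only, 0.06 without control siRNA replicate 3 and 0.24 without NRF2 siRNA replicate 1) and at ALDH7A1 (0.0102 at a q-value of at most 1e-05). Leaving out single libraries gave -0.36 to 0.24 at the ALDH1B1 start. Percentile differences changed sign at the ALDH1B1 start (0.165 with equal list lengths, 2.12 at a q-value of at most 1e-05, and -21.3 to 17.2 when single libraries were left out), at its upstream region (-30.2 to 4.45) and at the ALDH7A1 start (-25.7 to 2.63), in these last above 0 without NRF2 siRNA replicate 1. The ALDH3A1 start kept its call under 16 of 17 alternatives. Replicate 1 of both groups was the shallower, and its lists were the shortest. Within this pair the NRF2 siRNA library had slightly more reads by the supplement. It nevertheless had fewer peaks (23885 against 27941) and a lower highest fold enrichment (17.3 against 26.2) than its control. A missing call there can thus reflect the library, and whether depth or enrichment accounts for it was not tested.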
